A study of Mus musculus with 16 samples.

Results

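Complement is a blood and tissue protease cascade that tags particles for removal. The classical route starts when C1q, built from the chains C1qa, C1qb and C1qc, binds its target and activates the cleavage of C4 and C2, while the alternative route uses factor B (Cfb). Both routes form convertases that cut C3, and the fragments C3a and C5a signal through the receptors C3ar1 and C5ar1. The liver supplies most circulating complement, whereas C1q is made largely by macrophages and immature dendritic cells, and adipocytes are the main source of factor D (Cfd), which activates factor B.

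These 9 genes (C1qa, C1qb, C1qc, C2, C3, C4b, Cfb, C3ar1 and C5ar1) were found by their symbols, were chosen with earlier results of these data known, and take up 18 of the 130343 entries of the deposited table. RNA was sequenced from inguinal subcutaneous adipose tissue (SAT) and mesenteric visceral adipose tissue (VAT) of 8 wild-type male C57BL/6J mice. From an age of 10 weeks, 4 lean mice stayed on a normal laboratory diet and 4 obese mice received a Western diet. The Western diet had 42% of its energy from fat and held 0.2% cholesterol. Both diets were given for 12 to 14 months. Both depots of every mouse were sequenced, which gives 16 libraries in 4 groups of 4, and the left and right SAT of a mouse were combined. No transgene or targeted allele was involved, and only males were used.

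Libraries held up to 16614407 counts, and 2 VAT libraries, lean replicate 1 and obese replicate 1, were the shallowest with 1256082 and 2247737. Obese replicate 1 of VAT also held the most RNA of hepatocyte markers. Its albumin transcript Alb was at 356 CPM, Apoa1 at 40.5 and Fgb at 27.1, against at most 50.5, 11.1 and 0.243 in the other VAT libraries. In the SAT libraries Alb stood at 78.0 to 230 CPM, with no count of Apoa1 or Fgb. Alb alone is therefore not read as hepatocyte RNA. Levels below are counts summed per gene and scaled to CPM, a share of the library total, with TMM factors that adjust for library composition. They are not compared between genes because they are not divided by length. The fat markers Adipoq and Plin1 were measured in every library, and the summed adipocyte markers lay between 15263 and 58165 CPM.

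Of the 9 genes, 8 had enough counts to be tested. C1qa, C1qb, C2 and C3ar1 have a single entry each. Reads that fit several transcripts may not be counted for any of them, and C1qc, C3, Cfb, C4b and C5ar1 have several transcripts listed. C3 had 235185 counts, with 235182 on 1 of its 2 entries. C1qc had 760 counts, all on 1 of its 2 entries. Cfb had 825 counts, with 85.7% on 1 of 4 entries, and C5ar1 had 299, with 97.0% on 1 of 2. C4b had 82 counts over the 16 libraries, on 1 of 4 entries, with none in 2 libraries, and it was not tested. A low value of C1qc, Cfb, C4b or C5ar1 is therefore not read as low expression, and C4b and its close paralog C4a may share reads besides. The same limit holds for any other gene named below that has several transcripts, cell markers included.

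In the GRCm39 assembly with GENCODE M39 annotation, all 9 genes lie on the minus strand. C1qb (chr4:136606009-136613511), C1qc (chr4:136616466-136620376) and C1qa (chr4:136623223-136626161) are neighbours within 20153 bases. C4b (chr17:34947354-34962912), Cfb (chr17:35074852-35081559) and C2 (chr17:35081578-35117241) lie in the major histocompatibility region, and 18 bases separate C2 from Cfb. C3 is at chr17:57510964-57535155, C3ar1 at chr6:122823393-122833122 and C5ar1 at chr7:15980668-15993465. Cfb and C2 both overlap Gm20547, a protein-coding annotation on the same strand that spans parts of both, and Cfb overlaps Nelfe and C2 overlaps Zbtb12 on the other strand. C1qb and C1qc overlap the antisense noncoding gene Gm69251, C3 overlaps Gm65552 and C4b overlaps Gm65055. The library kit keeps strand, but the strand setting of the counting is not given in the sources used here, so reads of these pairs may be uncertain.

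The 250 bases before the RefSeq start are shown for C1qb and C3ar1, both of which were higher in obese mice in both tissues, and for C3, which differed most between tissues. They come from the RefSeq promoter table of build GRCm38.p6, and each matched GRCm39 once, at chr4:136613512-136613761, chr6:122833117-122833366 and chr17:57535137-57535386, all minus strand, 5′ to 3′. Capitals mark the motifs that a search of both strands found.
C1qb: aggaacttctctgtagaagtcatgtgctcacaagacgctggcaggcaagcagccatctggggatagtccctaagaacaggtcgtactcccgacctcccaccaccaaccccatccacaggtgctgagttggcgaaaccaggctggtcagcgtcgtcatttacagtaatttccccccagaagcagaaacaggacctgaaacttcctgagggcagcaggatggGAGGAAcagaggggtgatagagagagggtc
C3ar1: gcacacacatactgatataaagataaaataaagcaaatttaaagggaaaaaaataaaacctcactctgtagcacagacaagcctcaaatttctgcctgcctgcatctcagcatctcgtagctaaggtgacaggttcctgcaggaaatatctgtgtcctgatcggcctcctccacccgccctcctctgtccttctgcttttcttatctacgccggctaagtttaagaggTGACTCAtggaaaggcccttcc
C3: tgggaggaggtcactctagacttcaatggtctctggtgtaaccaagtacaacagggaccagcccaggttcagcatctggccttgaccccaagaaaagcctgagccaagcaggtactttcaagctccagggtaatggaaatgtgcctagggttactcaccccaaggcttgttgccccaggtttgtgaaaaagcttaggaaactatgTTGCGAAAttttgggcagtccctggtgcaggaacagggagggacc
The PU.1 core GAGGAA stood 30 bases before the start of C1qb. An AP-1 motif, TGANTCA, stood 22 bases before C3ar1, and a C/EBP motif, TTGCNNAA, 45 bases before C3. Of 32851 promoters of the same length, 23.3% held the first motif, 6.75% the second and 9.56% the third. The STAT motif TTCNNNGAA, held by 7.02% of promoters, was in none of the 5 members that the table holds, and no marked motif overlapped another. A match of letters is a description of the window and not evidence of binding.

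**Figure D1:**
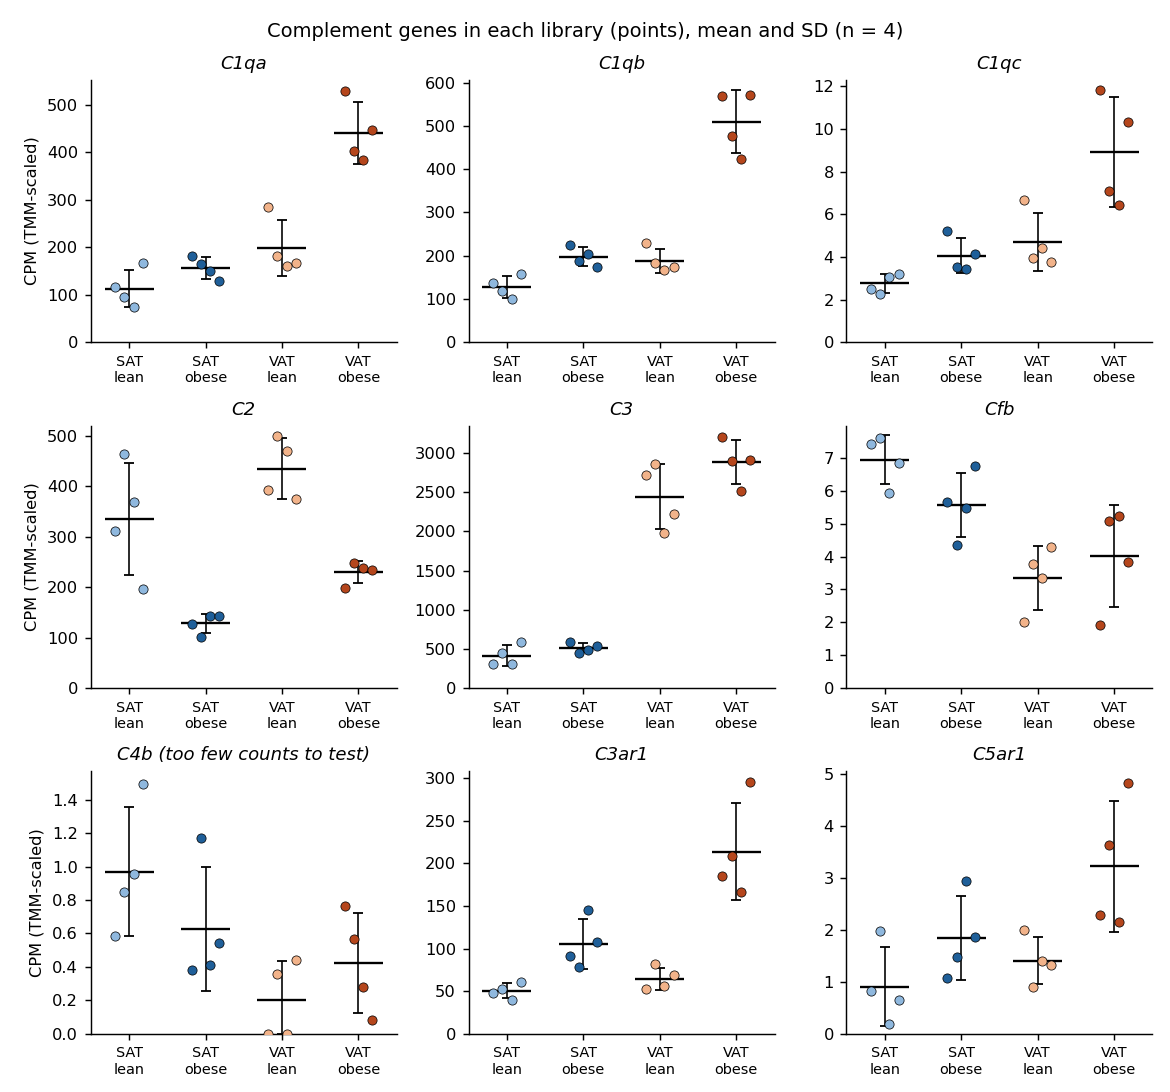
Level of each of the 9 genes in TMM-scaled CPM (y axis, from 0) in the 4 groups (x axis), with 1 point per library, the mean as a line and the SD as bars (n = 4). C1qa, C1qb and C3ar1 are highest in VAT of obese mice, C3 is several times higher in VAT than in SAT, and C2 is lower in obese than in lean mice of the same tissue.

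The first comparison asks how the long-term diet changed complement transcripts in each fat depot. In VAT, 6 of the 8 tested genes passed the test: C1qa, C1qb, C1qc, C3ar1 and C5ar1 were higher in obese mice and C2 was lower. In SAT, 3 of 8 passed, with C1qb and C3ar1 higher and C2 lower. Across all 12186 genes tested, the same test called 12.2% in VAT (6.88% higher, 5.28% lower) and 11.6% in SAT (6.35% higher, 5.25% lower). The median log2 fold change of the 8 genes was 1.08 in VAT and 0.52 in SAT, against -0.02 and 0.00 over all genes tested. Lean and obese libraries did not overlap for 5 of the 8 in VAT (background 14.3%) and for 4 in SAT (background 17.3%). Only C3ar1 in VAT had a called log2 fold change beyond the study's limit of 1.5, which 3.22% of all genes passed in VAT, and none of the 8 did in SAT, where 2.6% passed.

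Among the C1q chains, C1qa in VAT stood at 286, 182, 161 and 167 CPM in the lean mice and at 530.4, 403, 385 and 447 in the obese mice. Every obese library was above every lean one, and the highest value of each group came from its shallowest library. Its log2 fold change was 1.17 ± 0.20 (SE), a rise of 2.24 times (edgeR, adjusted p = 0.000588). In a bulk sample, more cells that make a transcript and more of it per cell cannot be told apart. In SAT, C1qa was at 116, 96.1, 73.3 and 166 CPM in lean mice and 183, 166, 149.5 and 129 in obese mice. These groups overlapped, lean replicate 4 being the high lean library. The log2 fold change of 0.48 ± 0.20 did not pass (edgeR, adjusted p = 0.134).

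C1qb moved with its neighbour. VAT levels were 229, 183, 167 and 175 CPM in lean mice and 569, 477, 423 and 571 CPM in obese mice, again without overlap. The fitted rise was 2.72 times (log2 fold change 1.44 ± 0.14, edgeR adjusted p = 9.7e-07). In SAT the lean libraries held 136, 119, 99.2 and 158 CPM and the obese libraries 225, 187, 203 and 174. Here too all obese libraries exceeded all lean ones, with a smaller rise of 1.55 times (log2 fold change 0.63 ± 0.14, edgeR adjusted p = 0.00561).

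C1qc was counted through 1 transcript. In VAT the lean libraries were at 6.68, 3.94, 4.43 and 3.74 CPM and the obese at 11.8, 7.12, 6.45 and 10.3, with lean replicate 1 inside the obese range. C1qc rose 2.00 times in VAT (log2 fold change 1.00 ± 0.25, edgeR adjusted p = 0.00933). In SAT the values were 2.5, 2.25, 3.07 and 3.21 CPM in lean mice against 5.19, 3.51, 3.43 and 4.12 CPM in obese mice. The SAT groups did not overlap, yet the log2 fold change of 0.57 ± 0.25 did not pass (edgeR, adjusted p = 0.152).

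C2, the serine protease that becomes part of the classical C3 convertase, went the other way from C1q. SAT of lean mice held 311, 464, 369 and 197 CPM and SAT of obese mice 127, 102, 142 and 143. All obese libraries lay below the lowest lean one, replicate 4. C2 in SAT was at 0.383 of its lean level (log2 fold change -1.39 ± 0.18, edgeR adjusted p = 3.7e-05). VAT levels were 393, 501, 471 and 375 CPM in lean mice and 197, 247, 238 and 234 CPM in obese mice. The VAT groups did not overlap either, at 0.527 of the lean level (log2 fold change -0.92 ± 0.18, edgeR adjusted p = 0.00164). C2 was thus lower with obesity in both depots in which C1qb was higher.

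C3, on which all routes converge, showed no called diet effect in either depot. VAT libraries of lean mice were at 2720.3, 2861, 1978 and 2217 CPM and those of obese mice at 3206, 2893, 2521 and 2907. SAT libraries were at 302, 440.0, 311 and 589 CPM in lean mice and 589, 449, 491 and 530.3 in obese mice. The groups overlapped in both depots. The log2 fold change was 0.24 ± 0.17 in VAT (edgeR, adjusted p = 0.432) and 0.33 ± 0.17 in SAT (edgeR, adjusted p = 0.232). Lean replicate 4 was the highest lean SAT library for C3 and for C1qa, and the lowest for C2. Without that mouse, C3 and C1qa also passed in SAT, at log2 fold changes of 0.54 (edgeR, adjusted p = 0.0329) and 0.70 (edgeR, adjusted p = 0.0205), and the SAT count became 5 of 8, with 1239 genes called in all against 1414 with every mouse. Other mice moved the values the opposite way, C3 to 0.21 without lean replicate 1 (edgeR, adjusted p = 0.486) and 0.22 without lean replicate 3 (edgeR, adjusted p = 0.497), and C1qa to 0.32 without lean replicate 3 (edgeR, adjusted p = 0.341).

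Cfb, the protease of the alternative C3 convertase, did not pass in either depot. Its SAT levels were 7.41, 7.61, 5.94 and 6.84 CPM in lean mice and 5.65, 4.36, 5.49 and 6.76 CPM in obese mice. In VAT they were 2.00, 3.76, 3.35 and 4.29 CPM against 1.91, 5.09, 5.24 and 3.83 CPM. The groups overlapped in both depots, with log2 fold changes of -0.31 ± 0.23 (edgeR, adjusted p = 0.421) and 0.25 ± 0.26 (edgeR, adjusted p = 0.611). C4b had between 0 and 11 counts in a library, that is 0.583 to 1.5 CPM in lean SAT, 0.382 to 1.17 in obese SAT, 0 to 0.440 in lean VAT and 0.0832 to 0.764 in obese VAT. In the lean VAT libraries without a C4b count, replicates 1 and 3, a count of 0 allows up to 2.39 and 0.327 CPM before TMM scaling, a limit that covers counting error only.

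C3ar1, the receptor for C3a, is found on macrophages and other myeloid cells and had the largest diet effect of the 8 tested genes in VAT. Lean VAT libraries were at 52.7, 81.4, 56.0 and 68.4 CPM and obese ones at 185, 209, 166 and 295. The obese libraries were all at least at 166 CPM, above every other library of the study. The rise was 3.27 times (log2 fold change 1.71 ± 0.20, edgeR adjusted p = 6.7e-06). In SAT, lean libraries were at 48.3, 52.7, 39.9 and 61.1 CPM and obese libraries at 91.8, 77.8, 145 and 108, again without overlap. That rise was 2.10 times (log2 fold change 1.07 ± 0.20, edgeR adjusted p = 0.000962).

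C5ar1, the receptor for C5a that draws neutrophils and macrophages, had between 2 and 58 counts per library. VAT levels were 2.00, 0.896, 1.40 and 1.32 CPM in lean mice and 2.29, 3.64, 2.15 and 4.82 CPM in obese mice, without overlap. The log2 fold change of 1.42 ± 0.46 passed narrowly (edgeR, adjusted p = 0.0467). It did not pass on the main transcript alone (edgeR, adjusted p = 0.0506), nor when any 1 of 5 mice was left out (edgeR, adjusted p from 0.0507 to 0.207). SAT levels were 0.833, 1.97, 0.192 and 0.641 CPM against 1.07, 1.49, 2.95 and 1.87 CPM. These overlapped, and 1.08 ± 0.48 did not pass (edgeR, adjusted p = 0.155). Single mice moved this SAT value: it passed without lean replicate 2, the highest lean library, at 1.72 (edgeR, adjusted p = 0.0423), and was 0.68 without lean replicate 3, the lowest (edgeR, adjusted p = 0.417).

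**Figure D2:**
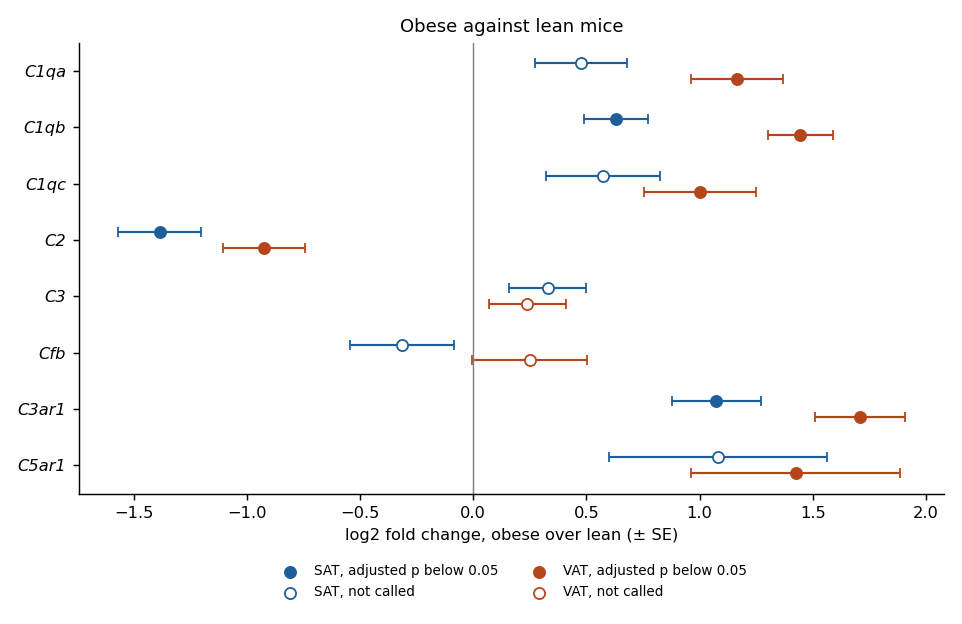
Log2 fold change of obese over lean mice (x axis) with its SE for the 8 tested genes, in SAT (blue) and VAT (brown); filled points passed the adjusted p threshold of 0.05. C1q chains and receptors lie to the right in both tissues, from 0.48 to 1.71, while C2 lies to the left at -1.39 in SAT and -0.92 in VAT.

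Tested per transcript entry, with 13288 entries in the fit, 5 of 8 passed in VAT (background 10.9%) and 3 of 8 in SAT (background 11%). The entry-level calls differed from the gene sums in C5ar1 alone.

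A second question is whether the diet effect differed between depots. Both tissues came from each mouse, and the mouse therefore entered this fit as a block. C1qb was the 1 gene of the 8 that passed, its diet effect being larger in VAT by 0.80 ± 0.17 on the log2 scale (edgeR, adjusted p = 0.0118), against a background of 2.47%. Per transcript entry it was also 1 of 8, against 2.17%. C1qa and C3ar1 had differences of similar size, 0.66 ± 0.21 and 0.65 ± 0.23, that did not pass (edgeR, adjusted p = 0.115 and 0.144). C1qa passed without lean replicate 1, at 0.81 (edgeR, adjusted p = 0.0441), and C3ar1 without obese replicate 3, at 0.97 (edgeR, adjusted p = 0.00948). For C2 the difference was 0.42 ± 0.18 (edgeR, adjusted p = 0.259), so a weaker fall in VAT than in SAT was not shown. C3, Cfb, C1qc and C5ar1 differed by between -0.13 and 0.55, none of which passed.

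The third comparison set VAT against SAT of the same mice. In lean mice 5 of 8 genes passed, with C1qa, C1qb, C2 and C3 higher in VAT and Cfb lower. In obese mice 6 of 8 passed, all higher in VAT: C1qa, C1qb, C1qc, C2, C3 and C3ar1. The test called 15.9% of all genes in lean mice (8.67% higher, 7.22% lower) and 31.4% in obese mice (16.3% higher, 15.1% lower). Per transcript entry, 4 of 8 passed in lean mice (background 14.8%), Cfb being lost (edgeR, adjusted p = 0.108), and 6 of 8 in obese mice (background 29.4%).

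C3 differed most between the depots. Within each lean mouse, VAT held 9.02, 6.50, 6.36 and 3.76 times the SAT level, and within each obese mouse 5.44, 6.45, 5.14 and 5.48 times. All VAT libraries were above 1978 CPM and all SAT libraries below 590. The log2 fold change was 2.61 ± 0.14 in lean mice (edgeR, adjusted p = 4.9e-11) and 2.49 ± 0.14 in obese mice (edgeR, adjusted p = 7.5e-11). The 5 mesothelium markers had a summed level of 246 to 596 CPM in VAT and at most 1.41 CPM in SAT. They passed the filter on low counts through VAT alone, so this is given as a level without a test, and their part in the C3 difference was not tested. Without the obese mouse whose VAT library held the most RNA of hepatocyte markers, the value in obese mice was 2.54.

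Differences of the C1q chains between depots were smaller. C1qa in VAT was between 1.00 and 2.46 times its SAT level in the lean mice and between 2.43 and 3.47 times in the obese mice. Lean replicate 4, the mouse with the high SAT level, gave the lowest ratio for C1qa, C1qb and C3. For C1qb the ranges were 1.11 to 1.69 and 2.09 to 3.28, so that obese and lean mice did not overlap. Fitted log2 differences in lean and obese mice were 0.84 ± 0.15 and 1.49 ± 0.15 for C1qa (edgeR, adjusted p = 0.000542 and 2.5e-07) and 0.57 ± 0.12 and 1.36 ± 0.12 for C1qb (edgeR, adjusted p = 0.00212 and 3e-08). C1qc was 1.11 ± 0.23 higher in VAT of obese mice (edgeR, adjusted p = 0.000724), and its 0.70 ± 0.27 in lean mice did not pass (edgeR, adjusted p = 0.0826).

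C2 was higher in VAT in all 8 mice, by 1.08 to 1.91 times in lean and 1.55 to 2.43 times in obese mice. The obese value of 0.84 ± 0.13 (edgeR, adjusted p = 3.5e-05) was called in every alternative run. The lean value of 0.43 ± 0.13 (edgeR, adjusted p = 0.0234) was lost without lean replicate 3 or 4. C3ar1 was higher in VAT by 1.02 ± 0.16 in obese mice (edgeR, adjusted p = 4.8e-05), and in lean mice 0.37 ± 0.17 did not pass (edgeR, adjusted p = 0.149). Cfb was lower in VAT in each lean mouse, at 0.270 to 0.627 of the SAT level (log2 fold change -0.96 ± 0.28, edgeR adjusted p = 0.0209). That call was lost without lean replicate 1, 2 or 3. In obese mice the Cfb value of -0.41 ± 0.26 did not pass (edgeR, adjusted p = 0.255), and neither did C5ar1 in either diet (0.62 ± 0.58 and 0.78 ± 0.44, edgeR adjusted p = 0.545 and 0.187).

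**Figure D3:**
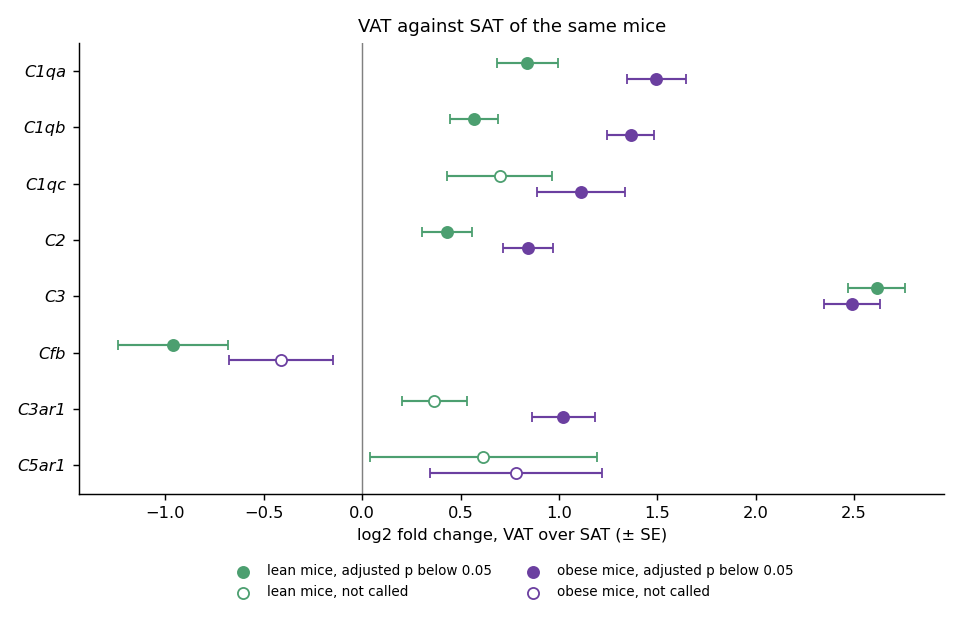
Log2 fold change of VAT over SAT of the same mice (x axis) with its SE for the 8 tested genes, in lean (green) and obese (purple) mice; filled points passed the adjusted p threshold of 0.05. C3 lies near 2.5 in both diets, while Cfb is the gene on the left.

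Ordered by group mean, the members fell into different patterns. C1qb ran from 128 ± 24.9 CPM (SD, n = 4) in lean SAT to 188 ± 27.8 in lean VAT, 197 ± 22.0 in obese SAT and 510.0 ± 72.5 in obese VAT, where the middle groups overlapped. C1qa had the same top and bottom, 441 ± 64.9 and 113 ± 39.7 CPM (SD, n = 4), and its other groups, 157 ± 22.9 in obese SAT and 199 ± 58.7 in lean VAT, overlapped with each other, as lean and obese SAT did. C2 ran from 128 ± 19.3 CPM in obese SAT to 229 ± 22.0 in obese VAT, 335 ± 112 in lean SAT and 435 ± 60.6 in lean VAT. Obese SAT lay below the other groups, and each of the other groups overlapped with the next. For C3ar1, lean SAT (50.5 ± 8.86 CPM), lean VAT (64.6 ± 13.1) and obese SAT (106 ± 29.2) overlapped with their neighbours, and obese VAT (214 ± 57.1) stood above all.

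Macrophages are a known source of C1q and carry C3ar1, and their markers are given beside these genes. Of the 10, Adgre1 and Cd163 had too few counts to test, and none lacked counts altogether. In VAT 6 of the 8 tested were higher in obese mice (Cd14, Cd68, Csf1r, Fcgr1, Lyz2 and Mrc1), and in SAT 5 of 8 (the same without Cd14), against 6.88% and 6.35% of all genes tested. Their summed level was 1323 to 1856 CPM in lean SAT, 2049 to 2995 in obese SAT, 2403 to 3181 in lean VAT and 4752 to 7021 in obese VAT. The sum of the 3 C1q chains over that of the markers was 0.13 to 0.176 in lean SAT, 0.116 to 0.174 in obese SAT, 0.116 to 0.194 in lean VAT and 0.147 to 0.234 in obese VAT. These ranges overlapped in both depots, in VAT through lean replicate 1 alone, the shallowest library, at 0.194. The other lean VAT libraries, at most at 0.138, were below every obese one. The ratio of C3ar1 to the markers was 0.0301 to 0.0329 in lean and 0.0361 to 0.0486 in obese SAT, and 0.0196 to 0.0264 in lean and 0.0343 to 0.0421 in obese VAT. Here all obese libraries were above all lean libraries of the same depot. The sum is set mostly by its most abundant markers, and the ratio depends on the markers used. Cd68 rose more than C3ar1, with log2 fold changes of 1.43 against 1.07 in SAT and 2.32 against 1.71 in VAT. The other tested markers rose less than C3ar1 in both depots. For C5ar1 the ratio overlapped between diets in both depots. The part of cell numbers in these results was not tested.

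**Figure D4:**
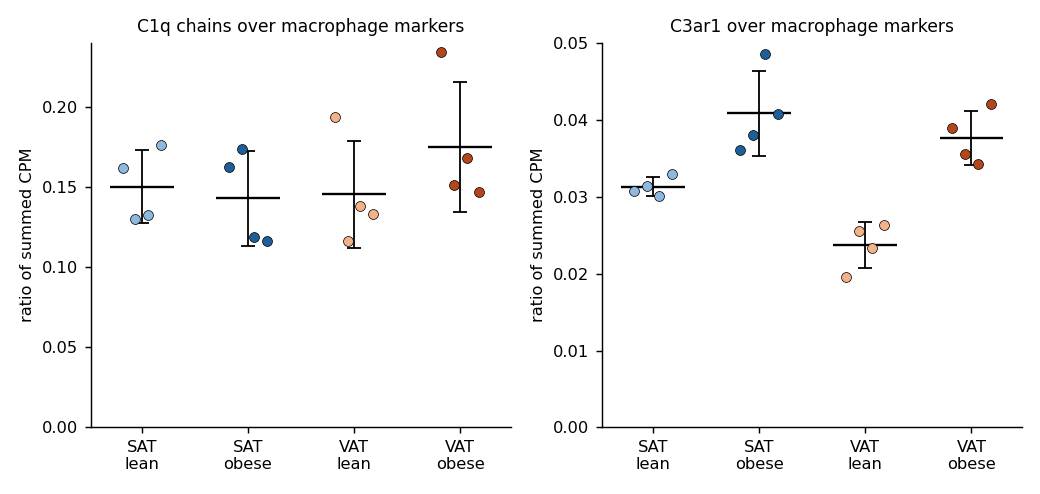
Summed CPM of the 3 C1q chains (left) and CPM of C3ar1 (right) divided by the summed CPM of 10 macrophage markers, by group, with 1 point per library, the mean as a line and the SD as bars (n = 4). The C1q ratio overlaps between the diets in each tissue, from 0.116 to 0.234 over all libraries, in VAT only through lean replicate 1. The C3ar1 ratio of every obese library lies above the lean libraries of its tissue. Cd68, 1 of the markers, rose more with obesity than C3ar1 in both tissues.

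Markers of other cells moved as well. In VAT of obese mice, 3 of 5 tested lipid-associated macrophage markers (Cd9, Gpnmb and Trem2), 2 of 4 B cell markers, 2 of 3 T cell markers and 1 of 2 neutrophil markers were higher, and 2 of 7 adipocyte markers, Adipoq and Plin1, were lower. Over all genes tested in VAT, 6.88% were higher and 5.28% lower, and lists this short give coarse shares. None of the 6 stromal markers passed for the diet in either depot, and none of the 5 mesothelium markers did in VAT. The mesothelium markers were near 0 in SAT, where their lack of a call says nothing about the diet. Lipid-associated macrophage, adipocyte, B cell, T cell and neutrophil markers had no call in SAT. Of the intestinal markers 1 of 4 was lower in VAT, of the exocrine pancreas markers 1 of 3 (Cela1) was higher in both depots, and of skeletal muscle markers the 1 tested was lower in SAT. Trem2 and the T cell marker Cd8a passed the filter on low counts through obese VAT, and the intestinal marker Zg16 through lean VAT, the groups where they were high, so their calls lend these counts no support. Alb, the 1 tested hepatocyte marker, did not pass for the diet. Between depots, macrophage markers were higher in VAT for 5 of 8 in lean and 7 of 8 in obese mice, against 8.67% and 16.3% of all genes. Adipocyte markers were lower in VAT for 2 of 7 and 5 of 7, against 7.22% and 15.1%. Of the 6 stromal markers, 2 were higher and 3 lower in VAT in both diets. The part of cell numbers in the depot differences was not tested.

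The rest of the pathway was covered by 42 further complement genes, of which 22 could be tested and 8 had no count. In SAT of obese mice C6, Itgax and Vsig4 were higher and Cfd was lower. In VAT Cfp and Itgax were higher and Cfd was lower. These are 4 of 22 in SAT. With C5ar2 the VAT count is also 4 of 22. C5ar2 would not have passed the filter on low counts without the obese libraries, in which it was high, so its call lends the VAT count no support. Of all genes tested, 11.6% were called in SAT and 12.2% in VAT, not far from these shares. The 22 genes' median log2 fold change was 0.35 in SAT and 0.20 in VAT.

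Cfd, factor D or adipsin, was lower in obese mice in both depots, but not firmly. It stood at 185 to 343 CPM in lean SAT and 70.3 to 113 in obese SAT, without overlap (log2 fold change -1.48 ± 0.42, edgeR adjusted p = 0.0234). VAT levels of 127 to 677 CPM in lean mice and 59.2 to 191 in obese mice overlapped (-1.40 ± 0.42, edgeR adjusted p = 0.0322). The SAT call was lost without lean replicate 2 or obese replicate 3 or 4. The VAT call was lost without lean replicate 1, whose 677 CPM was far above the other lean libraries, at -0.56 (edgeR, adjusted p = 0.253). It was also lost without obese replicate 2, 3 or 4, with only the libraries of 1 tissue in the fit, and with DESeq2 (adjusted p = 0.0601). Properdin (Cfp), which stabilizes the alternative convertase, was at 83.6 to 134 CPM in lean VAT and 138 to 193 in obese VAT (0.73 ± 0.16, edgeR adjusted p = 0.00427), and its 0.40 ± 0.16 in SAT did not pass (edgeR, adjusted p = 0.109).

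Among receptors, Itgax, the alpha chain of complement receptor 4 and a marker of dendritic cells and fat macrophages, went from 11.6 to 20.03 CPM in lean VAT to 92.1 to 229 in obese VAT. That was a rise of 8.67 times (log2 fold change 3.12 ± 0.32, edgeR adjusted p = 1.6e-06), larger than in SAT (1.38 ± 0.30, edgeR adjusted p = 0.00459) by 1.52 ± 0.34 (edgeR, adjusted p = 0.0173). Vsig4, a receptor for C3b on resident macrophages, behaved differently. It was at 2.59 to 6.20 CPM in lean SAT and 11.9 to 17.7 in obese SAT (1.85 ± 0.29, edgeR adjusted p = 0.000207), and 9.28 to 20.4 and 11.7 to 26.9 CPM in VAT (0.47 ± 0.27, edgeR adjusted p = 0.293). Its diet effect in VAT minus that in SAT was -1.36 ± 0.30 (edgeR, adjusted p = 0.0174). Without the 2 shallowest VAT libraries neither difference between depots passed (edgeR, adjusted p = 0.0661 for Itgax and 0.056 for Vsig4). C5ar2, the second C5a receptor, was at 0.324 to 0.956 CPM in lean and 1.13 to 2.5 CPM in obese VAT, without overlap. All its lean libraries were below 1 CPM after TMM scaling, and it would not have passed the filter on low counts without the obese libraries. Its levels are therefore given without a test. Its call in VAT was lost in 10 of 16 alternatives, including the fit without a filter.

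Of the terminal complex, only C6, C7 and C8g had enough counts to test. C6 was higher in SAT of obese mice, from 40.5 to 72.3 CPM in lean mice to 78.1 to 98.9 CPM in obese mice (0.71 ± 0.21, edgeR adjusted p = 0.0342), a call lost when any 1 of 6 mice was left out (edgeR, adjusted p from 0.0538 to 0.106). In VAT it was at 10.0 to 25.0 CPM in lean and 11.8 to 18.7 CPM in obese mice (0.05 ± 0.24, edgeR adjusted p = 0.928). Hc, which encodes C5, had 4, 12, 0 and 1 counts in lean SAT, obese SAT, lean VAT and obese VAT, too few to test. None of the 5 tested membrane regulators and neither of the 2 tested lectin pathway genes passed for the diet in either depot.

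Between depots, 8 of the 22 passed in lean mice, C1ra, C1s2, C7, Cfp, Clu, Vsig4 and Vtn being higher in VAT and C6 lower, against 15.9% of all genes tested (8.67% higher, 7.22% lower). In obese mice 11 passed, with 8 higher in VAT (C1ra, C1s2, C7, Cfp, Clu, Itgam, Itgax and Vtn) and 3 lower (C6, Cd59a and Cr1l), against 31.4% of all genes tested (16.3% higher, 15.1% lower). C7 and C6, adjoining subunits of the membrane attack complex, differed in opposite directions. C7 was higher in VAT by 2.38 ± 0.16 in lean and 2.45 ± 0.16 in obese mice (edgeR, adjusted p = 1.7e-09 and 6e-10), and C6 was lower by -1.75 ± 0.22 and -2.43 ± 0.21 (edgeR, adjusted p = 5.3e-06 and 2.5e-08).

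**Figure D5:**
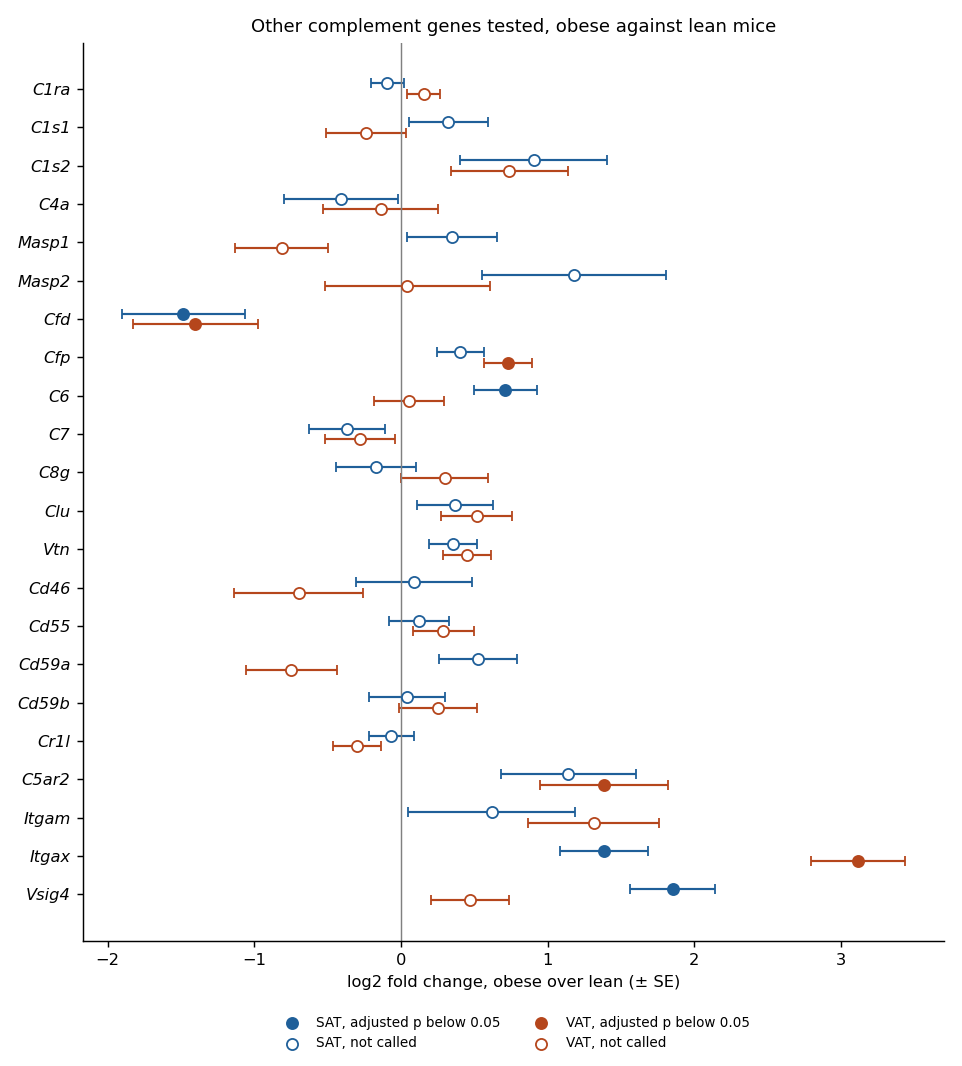
Log2 fold change of obese over lean mice (x axis) with its SE for the 22 other complement genes tested, in SAT (blue) and VAT (brown); filled points passed the adjusted p threshold of 0.05. Itgax in VAT lies farthest to the right at 3.12, Vsig4 passed in SAT at 1.85, and Cfd is on the left in both tissues. C5ar2 is drawn although it would not have passed the filter on low counts without the obese libraries.

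Within groups, the members did not all vary together from mouse to mouse. After each group mean was removed, log2(CPM + 1) of C1qa over the 16 libraries correlated with that of C1qb at r = 0.93, C2 at -0.69 and C3ar1 at 0.07. Outside the complement lists, Cotl1 (r = 0.97), Usf2 (0.94) and Selenom (0.92) were most like C1qa. For C3ar1 they were Clec12a (0.91), Lyz2 (0.91) and Nckap1l (0.89), and for C3 they were Gm10044 (0.86), Lyve1 (0.86) and Bcl2a1d (0.85). All these points share libraries, depth and scaling, and the shallowest libraries are among them, so the correlations are descriptions.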

How the data were processed

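Poly(A) RNA of each tissue was sequenced as paired-end reads. The authors trimmed reads with Trim Galore 0.6.6, aligned them with HISAT2 2.2.0 to GRCm39, counted them with HTSeq 0.13.5 and tested them with edgeR 3.34.0, in the versions of the submitters' processing notes; the study's methods give another version for Trim Galore. The deposited table holds raw counts and CPM per RefSeq transcript, and the deposited CPM equals the counts over the column total, without TMM. How shared reads were counted is not given in the sources used here. Of 130343 entries, 82.0% matched a symbol.

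Here counts were summed per gene, filtered (CPM above 1 in at least 3 of 16 libraries) and tested in R 4.3.3 by the quasi-likelihood F-test of edgeR 4.0.16 (setting legacy=TRUE, TMM scaling, Benjamini-Hochberg over all genes, threshold 0.05). Diets were compared across all 16 libraries. Tissues and the difference of diet effects used the mouse as a block, since SAT and VAT of 1 number came from the same mouse; their deviations from the group means correlated at -0.02 to 0.22. Replicates are separate mice. Within groups no pair of libraries agreed within sampling noise (lowest chi-square per degree of freedom 8.46). One count is worth 0.0602 to 0.796 CPM, and limits at 0 use 3 counts. The fits were tested on simulated data with 200 changed rows.

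The 9 genes, the 7 complement lists (pathways, regulators, receptors) and the 12 marker lists were chosen with earlier results of these data known. Named are all 9 genes, each further complement gene called for diet in either tissue, Cfd, Cfp, Hc, C5ar2 and Vsig4, genes that differed between tissues, and the 3 genes most correlated with C1qa, C3 and C3ar1. One listed complement gene is not reported here and is in none of the list counts. Alternatives were RLE size factors, no filter, DESeq2 1.42.0, legacy=FALSE, 1 tissue at a time, limma 3.58.1 voom, other blocks, and leaving out each mouse. Leaving out the 2 shallowest VAT libraries was chosen after seeing the data. Tables used pandas 2.3.3 and numpy 2.4.6 in Python 3.11.15, and figures matplotlib 3.10.9.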

Additional observations from a re-analysis of the deposited data

Results flagged for a closer look

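A test of the difference itself showed 3 complement genes whose diet effect differed between depots, with the mouse as a block: 1 of the 8 tested members and 2 of the 22 other genes tested, against 2.47% of all genes. The diet effect of C1qb was larger in VAT than in SAT by 0.80 on the log2 scale (edgeR, adjusted p = 0.0118), and the VAT level exceeded the SAT level by 1.11 to 1.69 times in the 4 lean mice and 2.09 to 3.28 times in the 4 obese mice. For Itgax the effect was larger in VAT by 1.52 (edgeR, adjusted p = 0.0173), a call lost without lean replicate 4 (1.26) or obese replicate 4 (1.22). For Vsig4 the value was -1.36 (edgeR, adjusted p = 0.0174), the effect being larger in SAT, and the call was lost without lean replicate 2 (-1.18), lean replicate 3 (-1.28) or obese replicate 3 (-1.12). Both were lost without the 2 shallowest VAT libraries and without the mouse as a block. In 32 groups of 4 libraries, no library of a tested member lay far enough from the others to pass Dixon's 95% critical value for 4 values. That is a limit that chance passes in about 1 of 20 groups. C1qa in lean VAT came close to it on the CPM scale. Its replicate 1, the shallowest library, held 286 CPM against 161 to 182 in the other lean mice.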

How the results depend on the processing

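No called direction of the 8 tested genes turned in any alternative run, and of the values per gene under alternatives 572 kept their side of the threshold, 12 lost a call and 7 gained one. With each mouse left out in turn, the number of the 8 genes called ranged from 3 to 5 in SAT (5 without lean replicate 4), from 5 to 6 in VAT, from 1 to 2 for the difference between depots (2 without lean replicate 1 or obese replicate 3), from 3 to 5 for VAT against SAT in lean mice (3 without lean replicate 3) and was 6 in obese mice. Per transcript entry the ranges were 3 to 5, 5 to 6, 1 to 2, 3 to 4 and 6. The calls over all genes moved too, across all alternatives from 927 to 1729 in SAT, 846 to 1835 in VAT, 134 to 453 for the difference, 1276 to 2060 in lean and 2488 to 4462 in obese mice. Without the 2 shallowest VAT libraries the counts were 3, 6, 1, 5 and 6, and the C1qb difference was 0.87 (edgeR, adjusted p = 0.0201). DESeq2 gave 3, 6, 1, 5 and 6, with 1607, 1593, 453, 1905 and 3576 of all genes called, against 1414, 1482, 301, 1937 and 3822 in edgeR.

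Lean and obese mice of the same replicate number are different mice. Deviations of same-number libraries of a tissue correlated at -0.13 to 0.22, with 4 of 8 pairs above 0.1. SAT and VAT of the same mouse correlated at -0.02 to 0.22, so these values cannot decide whether the number marks a shared step. With the number as a replicate block, 3 genes were called in SAT and 5 in VAT, C5ar1 being lost (edgeR, adjusted p = 0.0571). With no replicate block for the mouse, C2 between depots in lean mice was lost (edgeR, adjusted p = 0.182), 4 genes were called there, and C1qb still passed for the difference (0.82, edgeR adjusted p = 0.0482). C1qa in SAT passed with no filter and with limma voom (adjusted p = 0.0104 and 0.0481). Depth limits C1qc, Cfb, C5ar1 and C4b most, with at most 124 counts in a library.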
